A study of Mus musculus with 6 samples.

Results

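The MHC class II genes described here are H2-Aa, H2-Ab1, H2-Eb1, Cd74, H2-DMa, H2-DMb1 and Ciita. They were chosen by function, as the class II chains and the genes that load and switch them on, and were matched by symbol. All 7 were found among the 23366 genes of the expression table. RNA of brain cortex was sequenced from 3 control mice, named A1, A2 and A3, and from 3 mice at day 10 of microglia depletion, named A4, A5 and A6, with 1 library from each mouse. The depleted mice were CX3CR1-CreERT2+/–iDTR+/–, which places a diphtheria toxin receptor under Cre driven from the Cx3cr1 gene, a gene active in microglia and in other cells of the monocyte lineage. The controls were littermates that carried CX3CR1-CreERT2+/– without iDTR. Both groups were on a C57BL/6 background and received tamoxifen, which activates the Cre, and the labels give no age. Diphtheria toxin was given to deplete microglia, and the methods do not clearly say whether the controls received it, so an effect of the toxin and an effect of depletion cannot be told apart. The comparison addressed here is how class II transcripts in the cortex stood in the depleted mice beside their controls.

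A class II molecule is a pair of chains that shows peptides of proteins taken up from outside to CD4+ T cells. New pairs are held and guided to endosomes by the invariant chain Cd74, the H2-DM pair then swaps the last piece of Cd74 for a peptide, and Ciita is the coactivator that turns the whole set on at their promoters, often downstream of interferon gamma. In the healthy brain class II is found mainly on border macrophages and dendritic cells, with little on resting microglia.

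Values by mouse are given in the order A1, A2 and A3 for the controls and A4, A5 and A6 for the depleted mice. Levels are in FPKM, fragments per kilobase of transcript scaled to the size of the library, which the authors scaled between libraries with TMM factors (trimmed mean of M-values) and rounded to 2 decimals. From the spacing of low values, the depth behind them was about 14.5, 20.4 and 18.3 M fragments in A1, A2 and A3. The estimates were about 13.7, 7.12 and 11.2 M in A4, A5 and A6. Genes listed at 0 numbered 5834, 5920 and 6033 in the controls and 5903, 7144 and 6849 in the depleted mice, so A5 was the shallowest library with the most genes at 0. At these depths an estimated 172 fragments in all 6 mice stood behind H2-Eb1, 226 behind H2-Ab1, 307 behind H2-Aa, 161 behind H2-DMb1, 625 behind Cd74, 1007 behind H2-DMa and 70 behind Ciita. In a single mouse they ran from 13 to 53 fragments for H2-Eb1 and from 3 to 20 for Ciita. The 95% Poisson intervals drawn from them cover counting error only.

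A pair of libraries stood apart from the others. The control A3 held pituitary transcripts: the 9 pituitary genes, listed after seeing the data, summed to 5217 FPKM in A3 and to 4.18, 12, 9.38, 52.5 and 5.65 FPKM in A1, A2, A4, A5 and A6, with Prl, the prolactin gene, the most abundant. In A3 Xist, the RNA that coats the silenced X of female cells, was at 4.74 FPKM, against 30.9 to 46.7 FPKM in the other mice. The depleted mouse A4 held transcripts of the Y-linked genes Ddx3y, Eif2s3y, Kdm5d and Uty, which summed to 5.56 FPKM and to at most 0.16 FPKM elsewhere. A4 also had by far the highest interferon-stimulated genes, with Ifit3 at 132 FPKM beside 27.8 in A5 and 23.4 in A6. The differences of the members are therefore also given without A3 and A4, and those of other genes, where they moved by over 1.5 times, without a mouse or as a range. Ratios and marker sums are given mouse by mouse. Marker genes of cortical neurons, 6 of 6 listed and led by Slc17a7, summed to 402, 470 and 427 FPKM in the controls and to 419, 458 and 417 FPKM in the depleted mice. These sums overlapped (exact permutation p = 1.0).

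None of the class II genes separated the groups. Each of the 7 had depleted values inside or across the range of the control values, and the depleted mean was 0.873 to 1.152 times the control mean in FPKM. With limma on log2(FPKM + 1), 0 of the 6 members with a mean of at least 0.5 FPKM had an adjusted p under 0.1, beside 4 of all 14385 genes tested (0.0278%). Those 4, named after their values were seen, were 2700060E02Rik, BC002163, Gm20878 and Gm21586. At an unadjusted p under 0.05 the members again counted 0 of 6, beside 1515 of 14385 genes (10.5%). The groups overlapped in 7 of 7 members, while 2531 of 14385 genes (17.6%) had groups that did not overlap. The median difference on the log2 scale was 0.017 over the 7 members and -0.0085 over all genes tested. With 3 mice against 3, the exact permutation test of a single gene cannot go below a p of 0.1. A p that misses the threshold does not show that the groups did not differ, so each interval is given below. In bulk tissue fewer cells of a type and less RNA per cell cannot be told apart.

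**Figure D1:**
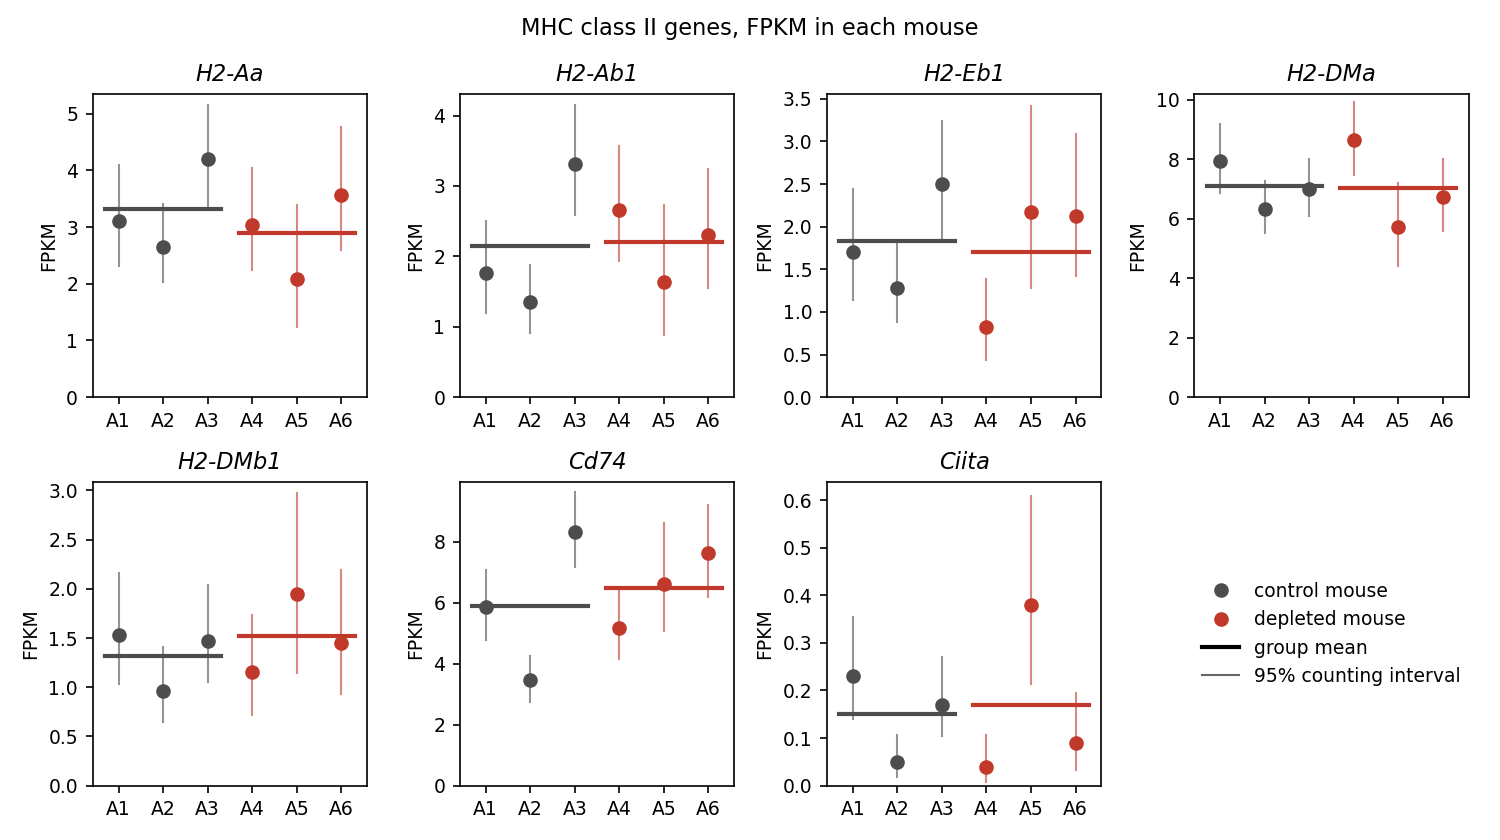
FPKM of the 7 MHC class II genes in each of the 6 mice (control grey, depleted red); thick lines are group means and thin bars are 95% Poisson counting intervals. In all 7 panels the red and grey points overlap, and A3 is the highest of the 6 mice for H2-Aa, H2-Ab1, H2-Eb1 and Cd74.

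Class II genes are known for a shared promoter design. Their promoters carry an X box, bound by RFX and CREB, and a Y box, bound by NF-Y, and Ciita docks on the assembled factors. RefSeq promoter windows on GRCm38.p6, from 250 bases before to 50 after the gene start, were at hand for 4 of the 7 members, namely H2-Aa, H2-Eb1, H2-DMb1 and H2-DMa, the last with 2 entries. H2-Ab1, Cd74 and Ciita had no entry. The windows below, 5′ to 3′ on the gene's own strand, show the Y box letters GATTGG in capitals at a like distance from the start in 3 members, and in B2m, the light chain of class I, for comparison. The other capitals mark AGNAACNNA, a second set of letters searched for the X box, in H2-Eb1 and H2-DMb1. In B2m they mark GAAANNGAA, part of the interferon-stimulated response element. They are H2-Aa at chr17:34287847-34287947 on the minus strand, H2-Eb1 at chr17:34305732-34305832, H2-DMb1 at chr17:34153054-34153154 and B2m at chr2:122147538-122147658, these last on the plus strand.
H2-Aa: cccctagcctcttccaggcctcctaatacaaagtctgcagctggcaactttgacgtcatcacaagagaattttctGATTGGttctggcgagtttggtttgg
H2-Eb1: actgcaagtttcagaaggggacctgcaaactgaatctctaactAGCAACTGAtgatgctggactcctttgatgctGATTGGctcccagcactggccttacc
H2-DMb1: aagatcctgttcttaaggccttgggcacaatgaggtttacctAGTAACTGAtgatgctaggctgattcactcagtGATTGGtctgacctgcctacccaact
B2m: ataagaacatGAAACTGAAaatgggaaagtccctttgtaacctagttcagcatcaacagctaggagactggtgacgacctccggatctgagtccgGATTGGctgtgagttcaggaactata

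Between GATTGG and the gene start lay 43 bases in H2-Aa, 54 in H2-Eb1, 56 in H2-DMb1 and 48 in B2m. In 1 of the 2 H2-DMa entries the letters lay 193 bases before the start. Searched on both strands of 32851 RefSeq windows of 300 bases, GATTGG was found in 16.1% and AGNAACNNA, added after the windows were seen, in 16.9%. The letters ACAGATG, searched for the X box as planned, were found in 5.01% of all windows and in no window of the other 3 members. In the 300-base H2-Aa window they stood on the opposite strand, 225 bases before the start. This is outside the stretch shown and not beside the Y box. The letters TTCNNNGAA (GAS, 8.30% of all windows) and GAAANNGAA (8.56%) were in none of the windows of the 4 members. GATTGG also stood on the opposite strand of H2-Eb1, 29 bases before its start, and the motifs do not overlap in the windows shown. A match describes letters and not a bound site.

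H2-Aa, the α chain of the I-A molecule, was at 3.10, 2.64 and 4.2 FPKM in the controls and at 3.03, 2.09 and 3.56 FPKM in the depleted mice. A3 was the highest and A5 the lowest, and the groups overlapped. The means were 3.31 ± 0.802 FPKM in control and 2.89 ± 0.744 FPKM in depleted mice (SD, n = 3 each; exact permutation p = 0.5). The limma difference in log2(FPKM + 1) was -0.15 (SE 0.19, adjusted p = 0.807). Its 95% interval, from -0.59 to 0.29, is 0.665 to 1.22 times in FPKM + 1, a scale that understates the folds of genes at a few FPKM. It was -0.0073 without A3, 0.0072 without A5 and -0.27 without A6.

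H2-Ab1, the β chain that pairs with H2-Aa, was at 1.76, 1.35 and 3.31 FPKM in the controls and at 2.66, 1.64 and 2.3 FPKM in the depleted mice. The control mice held both the highest value, in A3, and the lowest, in A2, so the depleted mice lay wholly inside the control range. The control mean was 2.14 ± 1.03 FPKM and the depleted mean 2.20 ± 0.517 FPKM (SD, n = 3 each; exact permutation p = 1.0). The log2 difference was 0.063 (SE 0.24, 95% interval -0.48 to 0.61, limma adjusted p = 0.946), and it was -0.12 without A2 and 0.32 without A3. A2 and A3, picked as the lowest and the highest, had Poisson intervals of 0.918 to 1.87 and 2.59 to 4.15 FPKM.

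H2-Eb1, the β chain of the I-E molecule, was at 1.70, 1.28 and 2.5 FPKM in the controls and at 0.82, 2.17 and 2.12 FPKM in the depleted mice. A4 was the lowest of all mice and A3 the highest, while A5 and A6 stood near the top, so the groups overlapped. The 13 fragments behind the A4 value give it an interval of 0.432 to 1.39 FPKM. The means were 1.83 ± 0.620 and 1.70 ± 0.765 FPKM in control and depleted mice (SD, n = 3 each; exact permutation p = 0.9), and the log2 difference was -0.086 (SE 0.25, 95% interval -0.67 to 0.49, limma adjusted p = 0.925). This difference turned with the library left out: it was 0.18 without A4, 0.079 without A3 and 0.34 without both, a choice made after seeing the data, but -0.23 without A2. C57BL/6 mice lack a working gene for the I-E α chain, so that H2-Eb1 has no usual partner in them. H2-Ea itself was not in the table, and H2-Ea-ps was listed at 0 in all 6 mice.

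H2-Aa exceeded H2-Ab1 in 6 of 6 mice, by 1.76, 1.96 and 1.27 times in the controls and by 1.14, 1.27 and 1.55 times in the depleted mice. H2-Ab1 exceeded H2-Eb1 in 5 of 6 mice, with A5 the exception, where H2-Eb1 also stood above H2-Aa. Summed over the 3 chains, the FPKM were 6.56, 5.27 and 10.01 in A1, A2 and A3 and 6.51, 5.90 and 7.98 in A4, A5 and A6. A3 was thus the highest and A2 the lowest in summed chains, with every depleted mouse between them.

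Cd74, the invariant chain, was at 5.87, 3.46 and 8.33 FPKM in the controls and at 5.17, 6.61 and 7.62 FPKM in the depleted mice. The controls again held the highest and the lowest mouse, A3 and A2, with Poisson intervals of 7.17 to 9.61 and 2.75 to 4.25 FPKM. The mean was 5.89 ± 2.44 FPKM in control and 6.47 ± 1.23 FPKM in depleted mice (SD, n = 3 each; exact permutation p = 0.8). The log2 difference was 0.17 (SE 0.25, 95% interval -0.41 to 0.75, 0.752 to 1.68 times in FPKM + 1, limma adjusted p = 0.842). It was -0.11 without A2, 0.42 without A3 and 0.55 without A3 and A4 (limma adjusted p = 0.527 in the last, the lowest of a range up to 0.947 over the settings tried). Cd74 stood 1.89, 1.31 and 1.98 times above H2-Aa in the controls and 1.71, 3.16 and 2.14 times above it in the depleted mice. The ratio was highest in A5 and the groups overlapped.

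H2-DMa, the α chain of the peptide editor H2-DM, was at 7.95, 6.34 and 6.99 FPKM in the controls and at 8.65, 5.72 and 6.73 FPKM in the depleted mice. The depleted mice held both the highest value, in A4, and the lowest, in A5, around the controls. Its means were 7.09 ± 0.810 and 7.03 ± 1.49 FPKM in control and depleted mice (SD, n = 3 each; exact permutation p = 1.0). The log2 difference of -0.022 (SE 0.15, limma adjusted p = 0.970) had the narrowest interval of the 6 members tested, -0.37 to 0.32. In FPKM + 1 this is 0.775 to 1.25 times. The difference was -0.16 without A4 and 0.099 without A5.

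H2-DMb1, its β chain, was at 1.53, 0.96 and 1.47 FPKM in the controls and at 1.16, 1.95 and 1.45 FPKM in the depleted mice. A5 was the highest and A2 the lowest, with the other mice mixed between them. The means were 1.32 ± 0.313 and 1.52 ± 0.400 FPKM in control and depleted mice (SD, n = 3 each; exact permutation p = 0.6), and the log2 difference was 0.12 (SE 0.18, 95% interval -0.29 to 0.52, limma adjusted p = 0.844). It was -0.00031 without A2 and -0.0029 without A5. H2-DMb1 shares 15.8% of its 75-base windows with its neighbour copy H2-DMb2, so reads of both could be split. H2-DMb2 was at 0, 0.29 and 0.29 FPKM in the controls and at 0.58, 1.44 and 0 FPKM in the depleted mice. The depleted mice held both its highest value, in A5, and a 0, in A6. With both genes summed the log2 difference was 0.30 (limma adjusted p = 0.658).

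The partners of the H2-DM pair stood far apart in level, with H2-DMa 5.20, 6.604 and 4.76 times H2-DMb1 in the controls and 7.46, 2.93 and 4.64 times in the depleted mice. Part of H2-DMa, 7.46% of its 75-base windows, lies within Brd2 on the opposite strand, and Brd2 was at 38.6 to 41.2 FPKM in control and 44.4 to 56.1 FPKM in depleted mice. Ciita shares 0.765% of its windows with Dexi on the opposite strand. Whether the libraries kept the strand is not stated, so reads from these shared windows cannot be told apart. H2-Aa, H2-Ab1, H2-Eb1 and Cd74 shared no 75-base window with another annotated gene.

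Ciita, the transactivator, was the lowest of the 7 genes, at 0.23, 0.05 and 0.17 FPKM in the controls and at 0.04, 0.38 and 0.09 FPKM in the depleted mice. The depleted mice held both the highest value, in A5, and the lowest, in A4. With a mean of 0.15 ± 0.0917 FPKM in control and 0.170 ± 0.184 FPKM in depleted mice (SD, n = 3 each; exact permutation p = 0.9), it lay under the filter of 0.5 FPKM and had no limma test. The A5 value rests on 16 fragments and the A4 value on 3, with Poisson intervals of 0.214 to 0.608 and 0.00753 to 0.107 FPKM. A4, with the lowest Ciita, also had the lowest H2-Eb1, and A5, with the highest Ciita, the lowest H2-Aa.

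On the per-length FPKM scale the mean levels over the 6 mice ran from H2-DMa at 7.06 and Cd74 at 6.18 through H2-Aa at 3.10, H2-Ab1 at 2.17, H2-Eb1 at 1.77 and H2-DMb1 at 1.42 to Ciita at 0.160. H2-DMa and Cd74 did not differ beyond their spread, since H2-DMa was the higher in 3 of 6 mice. H2-Ab1 over H2-Eb1 and H2-Eb1 over H2-DMb1 each held in 5 of 6 mice, and the other neighbours in this order held it in 6 of 6. Among the genes tested, 42.6% had a lower mean than H2-DMa, 24.7% a lower mean than H2-Aa and 13.1% a lower mean than H2-DMb1. The class II genes were thus in the lower range of the cortical transcripts tested.

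In each of the 7 members the SD of the control mice was larger than the difference between the group means. A2 was the lowest control in 7 of 7 members, and A3 was the highest control in 4, the chains and Cd74, where it was also the highest of all 6 mice. A1 was the highest control in the other 3 members. Among the depleted mice A6 was the lowest in none, A4 in 4 and A5 in 3. Taken gene by gene against the control mean, the median of the 6 members tested was 0.0085, -0.26 and 0.31 on the log2 scale in A1, A2 and A3. It was -0.088, -0.0066 and 0.11 in A4, A5 and A6. A3, the library with pituitary transcripts, thus set the upper end of the control range of the chains and Cd74, and the part of those transcripts in it was not tested. Without A3 and A4 the log2 difference was -0.041 for H2-Aa, 0.21 for H2-Ab1, -0.17 for H2-DMa, 0.27 for H2-DMb1 and 0.11 for Ciita, and the median over the 7 members was 0.21.

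The 5 genes most like the class II chains and Cd74 over the 6 mice were taken from 1890 genes with an SD of at least 0.3 in log2(FPKM + 1), by Pearson r with the mean of H2-Aa, H2-Ab1, H2-Eb1 and Cd74. They were Arhgap36 (r = 0.97), Trh (r = 0.91), 1700024F13Rik (r = 0.91), Peg10 (r = 0.90) and Sytl4 (r = 0.90), given as a description. An r over 0.9 was reached by 4 of the 1890 genes (0.21%). Over only 6 mice, values this high can arise by chance among so many genes. Trh encodes a hypothalamic releasing hormone and was at 11.8, 6.73 and 14.0 FPKM in the controls and at 10.4, 9.70 and 11.9 FPKM in the depleted mice. Like the summed class II chains, it was highest in A3 and lowest in A2, which its choice by r favours. The 6 hypothalamic peptide genes listed after seeing the data, Oxt the most abundant, summed to 150, 107 and 219 FPKM in the controls and to 121, 133 and 155 FPKM in the depleted mice. This sum was again highest in A3 and lowest in A2, but the genes in it did not all follow. Hcrt and Pmch were lowest in A5, and Agrp was highest in A4. Hcrt was lower and Agrp higher in each depleted mouse than in each control mouse. The part of tissue from other regions in the class II values was not tested.

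Class I molecules show peptides made inside the cell to CD8+ T cells. The class I genes tested were H2-K1, H2-D1, B2m and genes that make or load their peptides. As a list they were not tested against the class II genes. Of the 10 class I genes tested, 10 had a higher mean in depleted mice, 6 an unadjusted limma p under 0.05 (beside 10.5% of all genes) and 6 groups that did not overlap, all higher, beside 1181 of 14385 genes not overlapping and higher (8.21%). None of the 10 passed the adjusted threshold. Their median log2 difference was 0.73, against 0.021 for the 6 class II members tested and -0.0085 for all genes. For H2-K1, a class I heavy chain named after its values were seen, FPKM were 14.7, 11.7 and 15.8 in A1, A2 and A3 and 46.2, 23.7 and 22.6 in A4, A5 and A6. Each depleted mouse lay above each control mouse, with a log2 difference of 1.01 (SE 0.25, limma adjusted p = 0.370) that was 0.69 without A4. The extremes of the list were Psmb8 at 1.27 (SE 0.42, limma adjusted p = 0.396), an immunoproteasome subunit, and Tap2 at 0.28 (SE 0.25, limma adjusted p = 0.714), a peptide transporter subunit. Without A4 they were 0.74 and 0.056, and Tap2 was 0.59 without A6. The 9 interferon-stimulated genes were higher in every depleted mouse than in every control mouse, with an unadjusted limma p under 0.05 in 9 of 9 (beside the same 10.5%), none past the adjusted threshold, and a median log2 difference of 1.91. They ran from Stat2 at 0.75 (SE 0.25, limma adjusted p = 0.396) to Ifit3 at 2.304 (SE 0.56, limma adjusted p = 0.370), and without A4 these were 0.42 and 1.53.

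The plot of list medians by mouse shows that the lists lay farthest apart in A4. Against the control mean, the median of the class I genes was 1.28 in A4, with 0.37 in A5 and 0.48 in A6, on the log2 scale. That of the interferon-stimulated genes was 3.74, 0.99 and 1.10, and that of the class II members -0.088, -0.0066 and 0.11. A4, highest by far in the other lists, had the lowest class II median of the depleted mice, though A5 was lower in summed chains. With A4 left out, the median was 0.32 for the class I genes, 1.04 for the interferon-stimulated genes and 0.068 for the class II members.

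**Figure D2:**
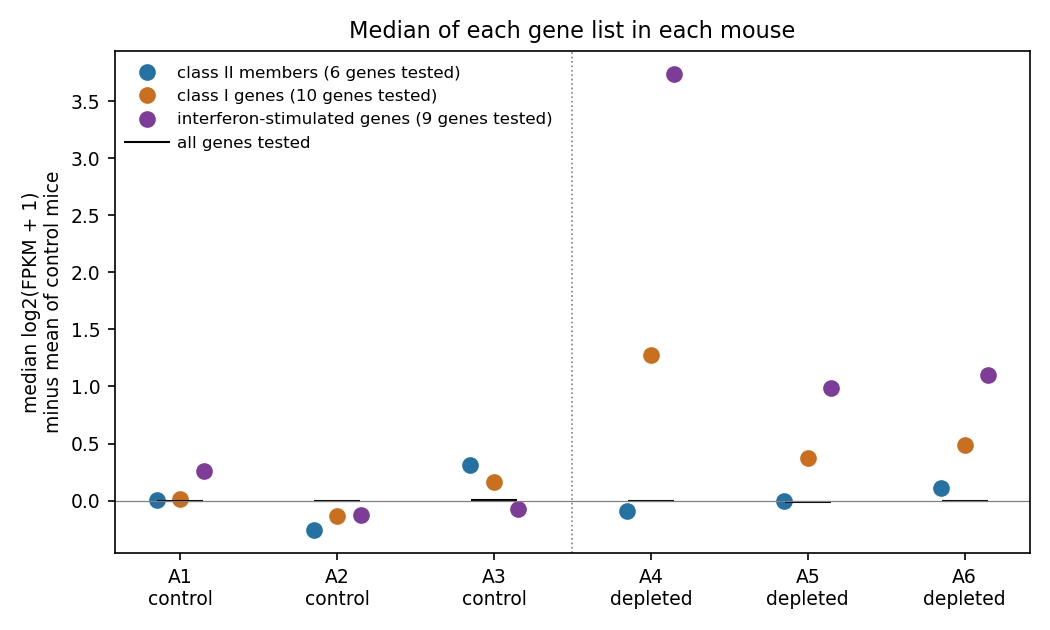
Median over each gene list of log2(FPKM + 1) in each mouse minus the mean of the control mice, for the 6 class II members tested (blue), 10 class I genes (orange), 9 interferon-stimulated genes (purple) and all genes tested (black bars). In A4 the purple point is at 3.74 and the orange at 1.28, with the blue at -0.088.

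**Figure D3:**
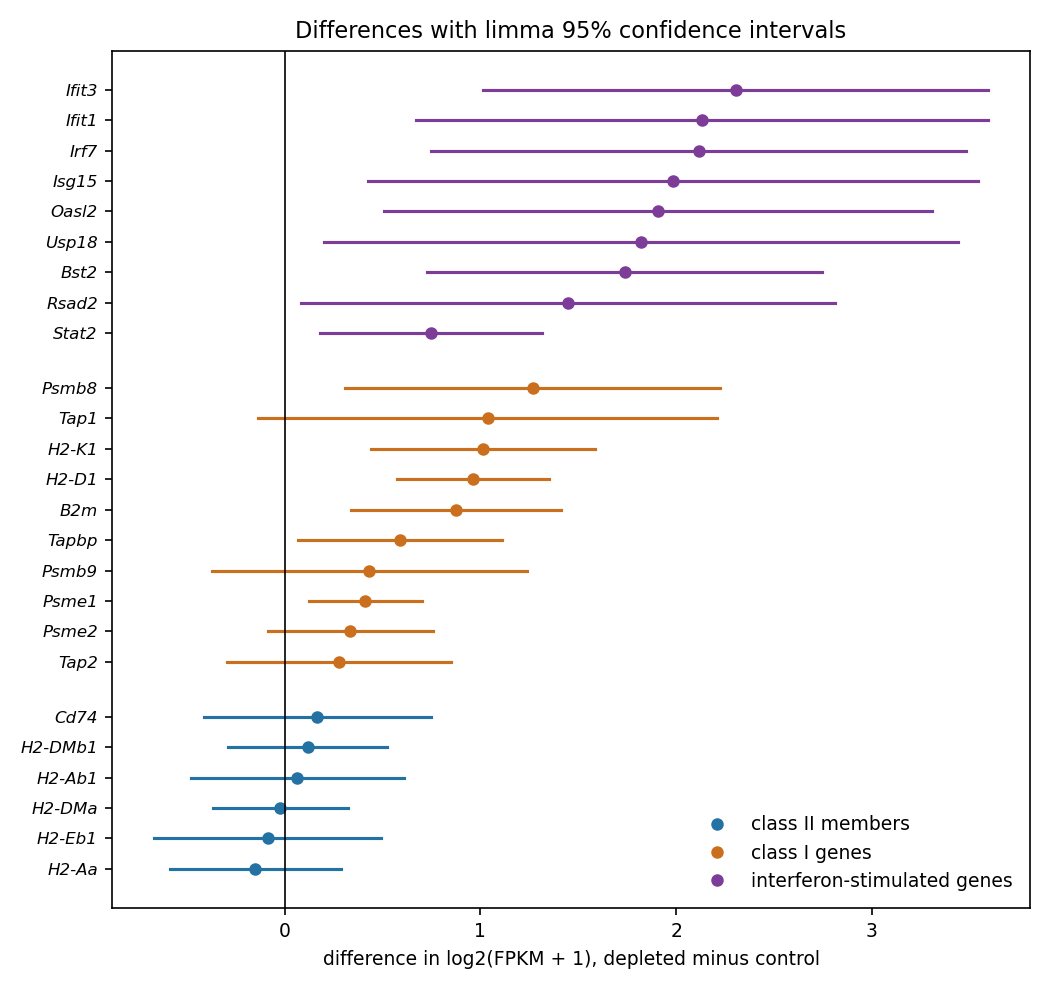
Difference in log2(FPKM + 1), depleted minus control, with limma 95% confidence intervals, for the class II members tested, class I genes and interferon-stimulated genes. The intervals of all 6 class II members include 0, while those of the 9 interferon-stimulated genes lie above it.

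The plot of differences shows that the class II estimates lay on both sides of 0, with 3 members above it and 3 below. To compare the classes within a mouse, 5 ratios of other genes to class II members were formed after seeing the data, and their exact permutation p-values were adjusted over the 5. H2-K1 stood 4.75, 4.42 and 3.76 times above H2-Aa in the controls and 15.3, 11.4 and 6.35 times above it in the depleted mice. Each depleted mouse thus had a higher ratio than each control mouse (exact permutation p = 0.1, the smallest possible, adjusted 0.25). The upper gene of each ratio (H2-K1, H2-D1, B2m, Ctss and Psmb8) was itself higher in each depleted mouse when picked. The 5 ratios in part restate this, and their p-values do not test class II against the other genes. H2-D1 stood 11.9, 14.2 and 7.42 times above H2-Ab1 in the controls and 21.04, 24.8 and 14.9 times above it in the depleted mice, again without overlap (exact permutation p = 0.1, adjusted 0.25). B2m over Cd74 was 16.6, 27.1 and 10.6 in A1, A2 and A3 and 50.9, 18.4 and 20.7 in A4, A5 and A6, and here A2 exceeded A5 and A6 (exact permutation p = 0.4, adjusted 0.4). The ratios of Ctss to Cd74 and of Psmb8 to H2-DMb1 overlapped between groups as well (exact permutation p = 0.2 and adjusted 0.25 for each).

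The class II genes are woven into a stretch of class I and other genes, which places members beside genes that stood apart. From H2-K1 to Btnl2 the GENCODE M21 annotation lists 21 protein-coding genes, of which 17 were tested and 5 are the members H2-DMa, H2-DMb1, H2-Ab1, H2-Aa and H2-Eb1. Between H2-DMb1 and H2-Ab1 lie Psmb9, Tap1, Psmb8, Tap2 and H2-Ob, with log2 differences of 0.43 (limma adjusted p = 0.687), 1.04 (0.517), 1.27 (0.396) and 0.28 (0.714) for the 4 tested. Over the alternatives run these ranged from 0.044 to 0.78, 0.35 to 1.57, 0.74 to 1.65 and 0.056 to 0.59, the lowest of each without A4. The members at both ends of these genes had 0.12 and 0.063, with ranges of -0.0029 to 0.30 and -0.12 to 0.32. Of the 12 other genes tested in the stretch, 3 had groups that did not overlap, all higher in depleted mice, namely H2-K1, Brd2 and Psmb8, beside 8.21% of all genes. Among the 5 members there were 0.

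**Figure D4:**
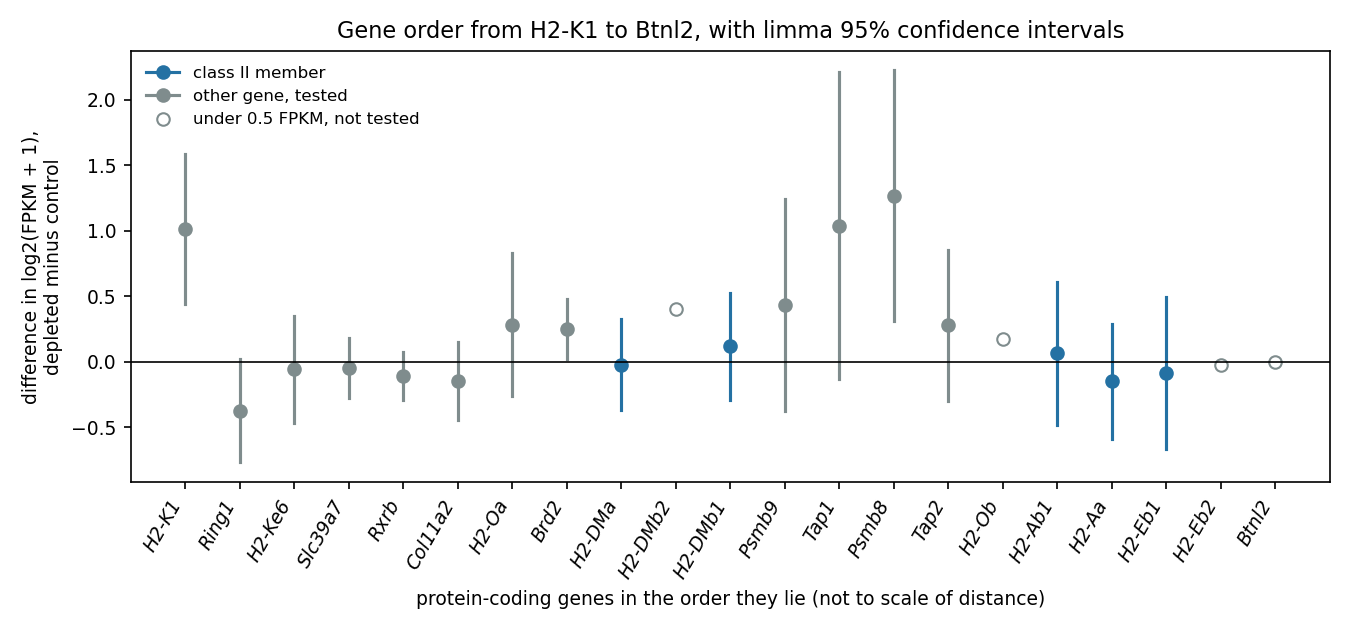
Difference in log2(FPKM + 1), depleted minus control, with limma 95% confidence intervals, for 21 protein-coding genes in the order they lie (even spacing, not distance). Class II members (blue) stay near 0, while H2-K1, Tap1 and Psmb8 among the other genes (grey) have estimates above 1 (Tap1 0.35 and Psmb8 0.74 without A4); open circles were under 0.5 FPKM and not tested.

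The other class II genes were near the floor. H2-Oa and H2-Ob encode the pair that holds H2-DM in check. H2-Oa was at 0.32, 0.42 and 0.57 FPKM in the controls and at 0.82, 1.33 and 0.25 FPKM in the depleted mice. A6 was the lowest and A5 the highest, so the groups overlapped, with a log2 difference of 0.28 (SE 0.24, limma adjusted p = 0.695) that was 0.074 without A5 and 0.52 without A6. H2-Ob, under the filter, was at 0.05, 0.07 and 0.14 FPKM in the controls and at 0.27, 0.21 and 0.20 FPKM in the depleted mice. The depleted mice all lay above the controls (exact permutation p = 0.1, the smallest possible), on 2 to 10 fragments a mouse, with counting intervals that overlapped. H2-Eb2 did not exceed 0.03 FPKM in any mouse.

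For the factors that sit on class II promoters the groups overlapped, as they did for most genes tested. All 9 listed genes, subunits of RFX and NF-Y, Creb1 and the acetyltransferases Crebbp and Ep300, were tested. Their groups overlapped in 9 of 9, while 17.6% of all genes tested had groups that did not overlap. In limma 0 passed the adjusted threshold and 0 had an unadjusted p under 0.05 (beside 10.5% of all genes). Their median log2 difference was 0.030, and 0.0081 without A4. The largest was 0.19 for the RFX subunit Rfxank (SE 0.12, limma adjusted p = 0.60) and the smallest -0.19 for Creb1 (SE 0.12, limma adjusted p = 0.605; range over the alternatives -0.33 to -0.11). Rfxank was at 5.06, 4.23 and 4.09 FPKM in the controls and at 5.26, 5.3 and 5.01 FPKM in the depleted mice. Only A1 among the controls reached into the depleted range. All these factors were thus far above Ciita in level, with Rfxank the lowest at a mean of 4.83 FPKM.

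Along the route from interferon gamma to Ciita the genes differed from each other. Ifng was listed at 0 in all 6 mice. Ifngr1, a chain of the receptor, named after its values were seen, was at 7.5, 7.28 and 8.12 FPKM in the controls and at 9.68, 9.31 and 10.7 FPKM in the depleted mice. Each depleted mouse was above each control mouse (log2 difference 0.33, SE 0.10, limma adjusted p = 0.378). Irf1, a factor that acts on a Ciita promoter, was at 2.02, 2.56 and 3.56 FPKM in the controls and at 4.95, 1.45 and 1.47 FPKM in the depleted mice. A4 was the highest and A5 and A6 the lowest, so the direction of its difference (-0.15, SE 0.34, limma adjusted p = 0.902) rests on single libraries and was -0.57 without A4, 0.010 without A3, 0.067 without A5 and 0.061 without A6.

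Genes that prepare and clear class II differed among themselves. Of the 9 tested, 6 had a higher and 3 a lower mean in depleted mice, 3 had an unadjusted limma p under 0.05 (Ctss, Ifi30 and Lgmn, all higher) beside 10.5% of all genes, and 0 passed the adjusted threshold. Their median log2 difference was 0.11, and 0.042 without A4. Ctss, the protease that makes the last cuts in Cd74, was at 37.1, 29.5 and 33.2 FPKM in the controls and at 92.9, 48.8 and 78.5 FPKM in the depleted mice. Each depleted mouse lay above each control mouse, with means of 33.3 ± 3.77 and 73.4 ± 22.5 FPKM (SD, n = 3 each), a log2 difference of 1.07 (SE 0.21) and a limma adjusted p of 0.293, which was 0.0183 without A5, with a difference of 1.34. Over the alternatives run, its adjusted p ranged from 0.0183 to 0.892. Ifi30, a reductase that opens disulfide bonds of antigens, was at 2.60 ± 0.293 FPKM in control and 5.15 ± 2.26 FPKM in depleted mice (SD, n = 3 each; log2 difference 0.71, limma adjusted p = 0.396; 0.44 without A4).

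Of the other lysosomal proteases on that list, Lgmn had a log2 difference of 0.26 (limma adjusted p = 0.432), Ctsd of 0.19 (0.542), Ctsl of 0.11 (0.718) and Ctsb of 0.054 (0.790). Over the alternatives run they ranged from 0.15 to 0.33, 0.095 to 0.26, 0.0089 to 0.18 and 0.029 to 0.082. Sppl2a, which removes the last membrane stub of Cd74, had -0.083 (limma adjusted p = 0.784), and -0.045 without A4. March1 and March8 encode ubiquitin ligases that take class II off the cell surface. March1 was at 5.69, 7.17 and 6.36 FPKM in the controls and at 3.81, 7.38 and 5.72 FPKM in the depleted mice. A4 was the lowest and A5 the highest, and its log2 difference of -0.19 (SE 0.20, limma adjusted p = 0.751) was 0.024 without A4 and -0.38 without A5. March8 was at 16.2 ± 0.738 FPKM in control and 14.5 ± 0.837 FPKM in depleted mice, lower in each depleted mouse (SD, n = 3 each; exact permutation p = 0.1, log2 difference -0.15, range -0.18 to -0.075, limma adjusted p = 0.567).

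Class II on a presenting cell works beside costimulatory and adhesion molecules, of which 2 of 4 listed genes were tested. Cd86, a ligand of CD28 on T cells, was at 0.85, 0.52 and 0.90 FPKM in the controls and at 1.13, 1.10 and 1.67 FPKM in the depleted mice. Each depleted mouse was above each control mouse (log2 difference 0.39, SE 0.17, limma adjusted p = 0.482; range over the alternatives 0.27 to 0.72). Icam1 had a log2 difference of 0.28 (SE 0.27, limma adjusted p = 0.735), with A4 at 2.53 FPKM and the other mice from 0.56 to 1.17 FPKM, and it ranged from -0.031 (without A4) to 0.46. Cd80 and Cd40 were under the filter in mean level.

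Markers of the cells that can carry class II are given, for most lists as sums, since the source of the transcripts cannot be read from bulk tissue. Of the microglia markers, 4 are given gene by gene, picked after their values were seen. Their p-values therefore only describe these genes and say nothing of the other markers. Over all genes tested, 17.6% had groups that did not overlap. P2ry12 was at 9.57, 10.2 and 8.5 FPKM in the controls and at 7.18, 6.45 and 7.91 FPKM in the depleted mice, and Fcrls at 11.9, 8.19 and 13.3 against 3.83, 5.05 and 7.91 FPKM. Both were lower in each depleted mouse than in each control mouse (exact permutation p = 0.1 for each). Aif1 was at 6.49, 6.3 and 5.88 FPKM in the controls and at 14.3, 7.34 and 12.8 FPKM in the depleted mice, the reverse order (exact permutation p = 0.1). Cx3cr1, the gene that drives the Cre, was at 4.74, 3.99 and 4.54 FPKM in the controls and at 4.91, 3.94 and 4.72 FPKM in the depleted mice, which overlapped (exact permutation p = 0.8). Border macrophage markers, 7 of 7 and Stab1 the most abundant, summed to 9.09, 9.80 and 9.28 FPKM in the controls and to 7.13, 8.85 and 6.14 FPKM in the depleted mice. Each depleted mouse was below each control mouse (exact permutation p = 0.1, the smallest possible). Of the 6 markers tested, 4 had a lower and 2 a higher mean in depleted mice. Only Stab1 had groups that did not overlap, beside 17.6% of all genes, so this count is near that share. Pf4 was at 1.38, 3.23 and 2.03 FPKM in the controls and at 0.12, 1.9 and 0.6 FPKM in the depleted mice, with A5 inside the control range. The order of the border macrophage sums rests on Pf4, since without it A2 would lie below A4 and A5. The means were 1.13 and 1.17 FPKM for Mrc1 and 0.893 and 1.45 FPKM for Lyve1 in control and depleted mice.

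Dendritic cell markers, 7 of 7 and Flt3 the most abundant, summed to 5.66, 5.04 and 6.11 FPKM in the controls and to 6.52, 7.10 and 7.0 FPKM in the depleted mice. Each depleted mouse was above each control mouse (exact permutation p = 0.1). The means of Flt3 were 2.67 FPKM in both groups. Itgax and Xcr1 were under the filter, and single mice carried much of their depleted means. Itgax was at 0.08, 0.04 and 0.08 FPKM in the controls and at 1.46, 0.42 and 0.44 FPKM in the depleted mice. The order of the dendritic cell sums rests on Itgax, since without it A4 would lie below A1 and A3. Xcr1 was at 0.16, 0.21 and 0.14 FPKM in the controls and at 0.24, 0.31 and 0.93 FPKM in the depleted mice. The 2 markers tested had 1 higher and 1 lower mean in depleted mice, and their groups overlapped. T cell markers, 6 of 6, were 84.8% Cd4, and summed to 2.73, 3.33 and 3.21 FPKM in the controls and to 3.78, 2.16 and 2.82 FPKM in the depleted mice (exact permutation p = 0.9). A4 was the highest and A5 the lowest. None of the genes was at 0 in every mouse, but Cd3e and Cd2 were at 0 in each depleted mouse. In the controls they were at most 0.07 and 0.06 FPKM. Cd3d was at 1.08 FPKM in A4 and at most 0.13 FPKM elsewhere. The sum is thus mostly the level of Cd4. Monocyte and neutrophil markers, 5 of 6 in the table and S100a8 the most abundant, summed to 4.96, 3.3 and 3.16 FPKM in the controls and to 5.15, 6.74 and 1.53 FPKM in the depleted mice (exact permutation p = 0.6). A5 was the highest and A6 the lowest. Of the 3 markers tested, 1 had a higher and 2 a lower mean in depleted mice, and the groups overlapped in all 3. An unadjusted limma p under 0.05 was found in 1 higher (Ly6c2) and 1 lower (S100a9), beside 10.5% of all genes. The part of any of these cells in the class II values was not tested.

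**Figure D5:**
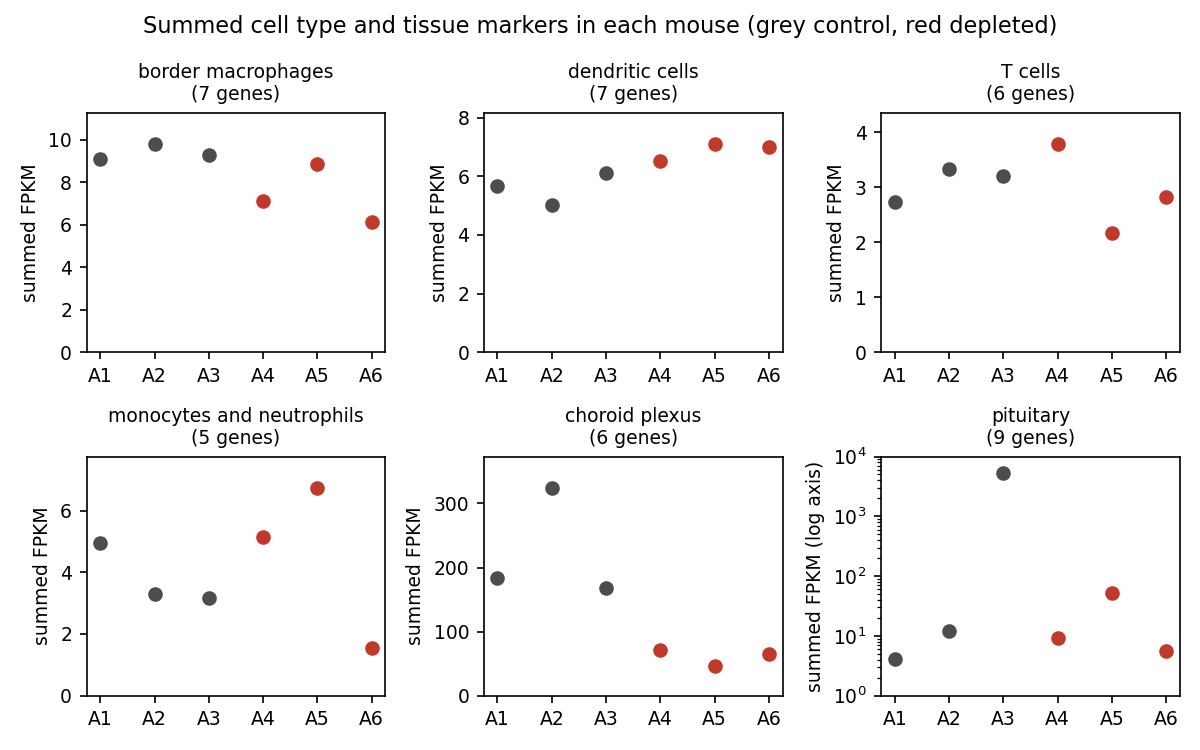
Summed FPKM of marker genes in each mouse (control grey, depleted red) for 6 cell types or tissues; the pituitary panel has a log axis. Border macrophage and choroid plexus sums are lower and dendritic cell sums higher in depleted mice, and the pituitary sum is 5217 FPKM in A3. The border macrophage order rests on Pf4 and the dendritic cell order on Itgax.

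The plot of summed markers also shows the choroid plexus, a border tissue that houses class II cells. Its 6 markers, of which Ttr made up 94.5%, summed to 183, 325 and 168 FPKM in the controls and to 71.6, 45.7 and 65.7 FPKM in the depleted mice. Each depleted mouse was below each control mouse (exact permutation p = 0.1). The sum was highest in A2, as were Ttr, Folr1, Kl and Kcnj13, while Clic6 was highest in A1 and Sostdc1 in A3. Endothelial markers, 4 of 4 and Ly6c1 the most abundant, summed to 34.3, 37.9 and 41.0 FPKM in the controls and to 45.4, 43.5 and 41.1 FPKM in the depleted mice (exact permutation p = 0.1). The depleted mice were the higher, though A6 stood barely above A3. Markers of the leptomeninges, 5 of 5 and Dcn the most abundant, summed to 34.2, 28.7 and 30.4 FPKM in the controls and to 32.7, 30.8 and 25.9 FPKM in the depleted mice, which overlapped (exact permutation p = 0.7). The part of how much border tissue each cortex piece held in the class II values was not tested.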

How the data were processed

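The table that the authors deposited holds FPKM per gene and mouse, from 75-base paired-end poly(A) libraries aligned with TopHat to mm9, quantified with RSEM and scaled with TMM factors. All 6 columns were used, grouped by label. No paired analysis was possible because the groups share no replicate number.

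Genes whose mean reached 0.5 FPKM were compared on log2(FPKM + 1) with limma 3.58.1 in R 4.3.3 (lmFit, eBayes with trend), with Benjamini-Hochberg adjustment over all 14385 genes tested and a threshold of 0.1. Single values were compared by exact two-sided permutation tests over the 20 splits of 3 against 3 mice. The fit was tested on simulated data. Raw counts were not in the table, so the count test of the methods was not run.

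Depth was estimated from the spacing of low values in 1813 genes with 1 annotated transcript of 400 to 1500 bases. Counting intervals are exact Poisson intervals at 95%, computed with scipy 1.17.1. Transcripts, gene order and 75-base windows shared between genes came from GENCODE M21 (GRCm38), and promoters from RefSeq (GRCm38.p6).

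All members are named. Results for some marker and signalling genes and for lists that hold them are not reported here. Other genes come from fixed lists, by the largest and smallest log2 difference of each list and, for processing genes, a mean above 5 FPKM. H2-K1, H2-D1, B2m, Ifi30, the ratios and the lists of hypothalamus and pituitary were picked after seeing the data, as were Cx3cr1 and genes named for their place beside members or for groups that did not overlap. The members and lists were chosen with earlier results of these data known. Settings changed in turn were the scaling (TPM, quantile normalization or median-of-ratios), the eBayes step (robust, or without trend), the weights (array weights), the threshold (0.05), the pseudocount (0.1) and the filter (none, or a mean of 1 FPKM). Each mouse was also left out, H2-DMb1 was summed with H2-DMb2 and, chosen after seeing the data, A3 and A4 were left out together. Python 3.11.15, numpy 2.4.6, pandas 2.3.3 and matplotlib 3.10.9 were used.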

Additional observations from a re-analysis of the deposited data

How the results depend on the processing

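Under 16 other settings and 1 added after seeing the data, 0 members passed the limma threshold, and 0 of 6 had an unadjusted p under 0.05 with all mice kept as reported. The direction of a member was not stable: all 7 changed sign under at least 1 alternative that left out a mouse, and H2-Ab1, H2-Eb1 and Ciita also with all mice kept. With 1 mouse left out, the log2 difference ranged from -0.27 to 0.0072 for H2-Aa, -0.12 to 0.32 for H2-Ab1, -0.23 to 0.18 for H2-Eb1, -0.16 to 0.099 for H2-DMa, -0.0029 to 0.22 for H2-DMb1, -0.11 to 0.42 for Cd74 and -0.11 to 0.096 for Ciita. The median over the members ranged from -0.11 to 0.096. With array weights H2-Ab1 was at -0.00067 and H2-Eb1 at 0.044, and a pseudocount of 0.1 put Ciita and the median of the members at -0.022. Without A3 and A4, H2-Eb1 was at 0.34, March1 at 0.022 and Icam1 at -0.00026. With 1 mouse left out March1 ranged from -0.38 to 0.024, Irf1 from -0.57 to 0.067 and Icam1 from -0.031 to 0.46. The 4 genes called over the whole table became 2 with eBayes without trend, 20 with array weights and 2 to 29 with 1 mouse left out. The count was 29 without A5, 8 without A6 and 2 without A1, and the cause was not tested. H2-D1 passed the threshold with array weights (limma adjusted p = 0.0950, range over the alternatives 0.0950 to 0.892), as did Ttr (adjusted p = 0.0950, range 0.0950 to 0.392). Depth limits single values, such as those of Ciita and H2-Eb1 in A4, which rest on 3 and 13 fragments, and 3 mice a group limit every interval.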
